A study of Macaca mulatta with 7 samples.

Results

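The glucocorticoid receptor and the chaperones that fold it were followed through sperm RNA as 8 genes chosen by their function: NR3C1, NR3C2, HSP90AA1, HSP90AB1, STIP1, PTGES3, FKBP4 and FKBP5. Of these, 7 were found among the 18282 genes of the deposited gene table, and HSP90AA1 was not analysed here. The samples were total RNA libraries of rhesus macaque (Macaca mulatta) sperm cells, 3 from a group labelled Maltreated (5.67 to 5.78 years of age) and 4 from a group labelled Control (5.72 to 5.92 years), with no other treatment or genotype given. The cells of both groups had been passed over a PureSperm 40/80 density gradient, which enriches sperm over round cells, and TRIzol served for extraction. By its title the study asks how stress in early life is reflected in germline RNA. The labels give each library its own age but name no animals, and the deposited counts list each library under its own subject number. The p values measure the spread between these libraries.

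The glucocorticoid receptor binds cortisol in the cytoplasm and then acts in the nucleus as a transcription factor. Before it can bind hormone it is handed from HSP70 to HSP90 and held there by co-chaperones, and the exchange of one immunophilin for another on HSP90 alters its hormone affinity and its transport to the nucleus. Mature sperm are largely silent in transcription, so their RNA is mostly what was left from earlier stages of spermatogenesis, together with any RNA of other cells in the preparation.

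Sense counts, those on a gene's own strand, came to between 6160996 and 30715268 per Maltreated library and between 5316383 and 9847743 per Control library. All 16 marker genes of sperm and late spermatids that were looked up had sense counts in every library and summed to between 45350 and 103700 CPM in Maltreated and between 49020 and 63060 CPM in Control libraries. CPM are sense counts scaled to a common library size, with TMM factors that correct for composition. The libraries Maltreated 3 and Control 4 stood apart by the sum of their leukocyte markers. In them 20 leukocyte markers summed to 1141 and 803.5 CPM, against 36.31 and 99.02 CPM in the other Maltreated libraries and between 35.32 and 85.07 CPM in the other Control libraries. PTPRC, the pan-leukocyte CD45, had 1.21, 1.34 and 67.4 CPM in Maltreated 1 to 3, against 0.213, 1.81, 3.07 and 3.91 CPM in Control 1 to 4. Of the 20 markers 1, 5 and 1 were at 0 in Maltreated 1 to 3 and 7, 6, 4 and 4 in Control 1 to 4, with the B cell marker MS4A1 the one missing from Maltreated 3 and MS4A1, FCER1G, AIF1 and S100A8 those missing from Control 4. The leading markers were CD68 and CD74 in Maltreated 3, at 362 and 246 CPM, and CD74 in Control 4, at 497 CPM. In Control 4 the markers were mixed. C1QB, CSF3R and LCP1 were highest there (63.5, 30.4 and 74.5 CPM). ITGAM, ITGB2 and CD14 (20.5, 1.3 and 1.86 CPM) were below Maltreated 2 (31.1, 12.2 and 8.03 CPM). Control 4 was also highest for 10 testis somatic markers, at 79.92 CPM summed. The other libraries had 20.05 to 38.22 CPM (Maltreated) and 11.2 to 50.38 CPM (Control). Control 2 stood apart by 10 markers of epithelium and accessory glands, which summed to 296.1 CPM there, with the prostate gene TGM4 at 247 CPM, against 7.771 to 28.04 CPM in Maltreated and 21.02 to 32.63 CPM in the other Control libraries. Control 2 was also the highest library for FKBP4, STIP1 and PTGES3, and the part of these other cells or fluids in those values was not tested. Counts were also unevenly spread: the genes detected in Control 4 were covered by reads over a median of 9.59% of their exon bases, and those in Maltreated 1 over 74.42%. Values for Maltreated 3 and Control 4 are therefore given with and without them.

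The question of the comparison was whether any of these genes differed between Maltreated and Control sperm. None of the 7 passed edgeR's quasi-likelihood test at an adjusted p of 0.05, none had an unadjusted p under 0.05, and the DESeq2 Wald test called 0 as well. Across all genes the edgeR test called 0 of 10719 (0.0%), with 191 (1.78%) at an unadjusted p under 0.05, and DESeq2 called 3. The 2 groups overlapped in every member, where 2.1% of all tested genes were higher in every Maltreated library than in every Control library and 1.49% were lower. In Maltreated sperm 3 members had a log2 fold change above 0 and 4 below, with a median of -0.05, and 48.7% of all tested genes were above 0, with a median of -0.02. What follows is therefore mainly an account of how much RNA of each gene sperm carried, from which exons, and how far it varied between libraries.

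**Figure D1:**
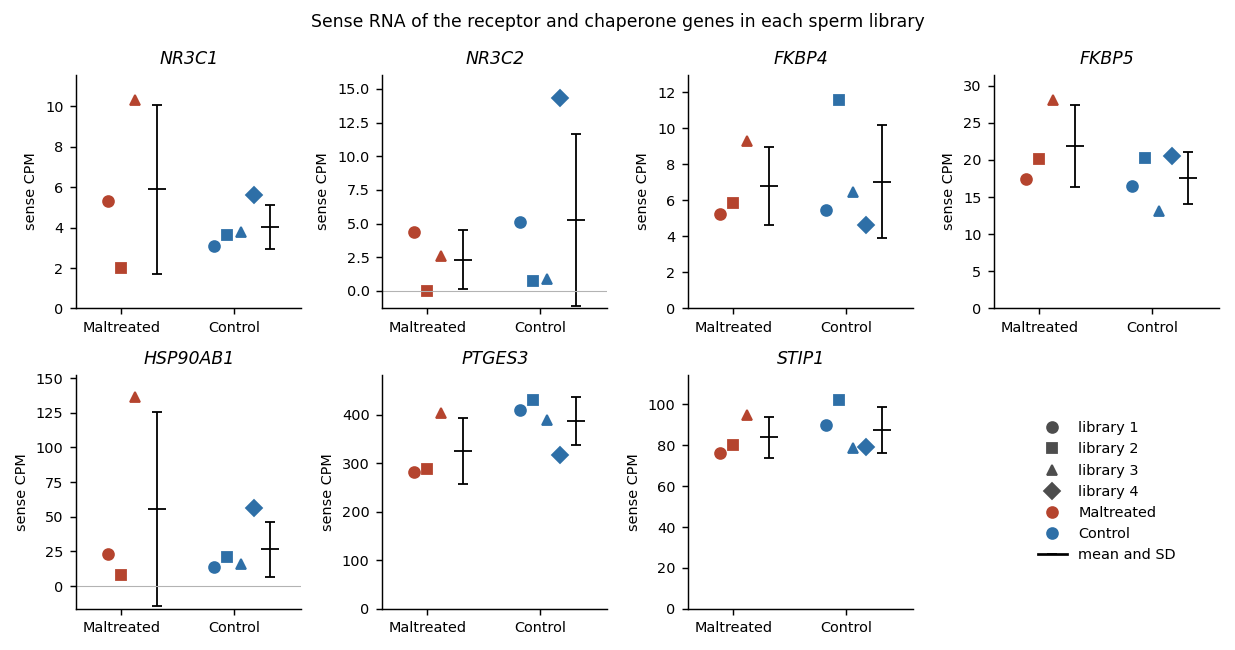
Sense RNA (vertical axes, CPM) of the 7 genes in each library, Maltreated in red on the left and Control in blue on the right of each panel, with the group mean and SD in black. HSP90AB1 and NR3C1 were highest in Maltreated 3 (136 and 10.33 CPM), while PTGES3 and STIP1 lay within a 1.523-fold and a 1.34-fold range over the 7 libraries.

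NR3C1, the glucocorticoid receptor itself, is placed by the files on chromosome 5 (minus strand, 140842906 to 140967840, genome build not stated), with 9 exons of 6393 bases. It had 159, 12 and 119 sense counts in Maltreated 1 to 3, against 29, 20, 22 and 30 in Control 1 to 4. Scaled, these were 5.326, 2.007 and 10.33 CPM in Maltreated and 3.094, 3.625, 3.758 and 5.589 CPM in Control libraries. Maltreated 3 was thus the highest of the 7 libraries and Maltreated 2 the lowest, so the Control libraries lay inside the range of the Maltreated ones. The means were 5.89 ± 4.19 CPM (SD, n = 3) in Maltreated and 4.02 ± 1.09 CPM (SD, n = 4) in Control sperm, with a log2 fold change of 0.55 ± 0.97 (SE; edgeR adjusted p = 0.999). Its 95% interval ran from -1.59 to 2.70. The log2 fold change was -0.13 without Maltreated 3, 0.74 without Control 4 and 0.07 without both. The median of all tested genes was itself -0.11 without Maltreated 3. In bulk RNA fewer cells of a type and less RNA per cell cannot be told apart, and whether leukocytes carried the NR3C1 RNA of Maltreated 3 was not tested.

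The exons that supplied the NR3C1 counts differed from library to library. Maltreated 1 had counts on 8 of the 9 exons, and Maltreated 3 on 7. Exon 2, of 1196 bases, held 47 of 119 counts in Maltreated 3, and 13, 0, 4, 0, 4 and 1 counts in Maltreated 1, Maltreated 2 and Control 1 to 4. The last exon makes up 64.1% of the exon bases, but held 10.1, 0.0 and 26.9% of the counts in Maltreated 1 to 3 and 0.0, 10 and 4.55% in Control 1 to 3. In Control 4 it held 28 of the 30 counts, which together covered a fraction of 0.0234 of that exon. The Control 4 value thus rested almost wholly on a short stretch. No NR3C1 exon carried a count in all 7 libraries.

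NR3C2, the mineralocorticoid receptor, is a close relative that also binds cortisol. It lies on the minus strand of chromosome 4, from 147851880 to 148211954. The files list its 9 distinct exons in 17 entries, so most exons are counted more than once in the deposited gene count. That count was 130, 0 and 30 in Maltreated 1 to 3, against 48, 4, 5 and 77 in Control 1 to 4. With each exon taken once it was 75, 0 and 19 in Maltreated 1 to 3, against 30, 3, 3 and 40 in Control 1 to 4. The absence in Maltreated 2 allows up to 0.502 CPM (3 counts), a limit of counting error only, and Control 2 and Control 3, with 4 and 5 counts, stood at 0.725 and 0.854 CPM. NR3C2 was highest in Control 4, with 14.35 CPM, where 33 of the 40 distinct counts lay on the last exon. The means were 2.32 ± 2.19 CPM (SD, n = 3) in Maltreated and 5.26 ± 6.39 CPM (SD, n = 4) in Control sperm, with a log2 fold change of -1.16 ± 1.55 (SE; edgeR adjusted p = 0.999). Without Control 4 it was 0.04, and with age as a covariate 1.55 ± 2.57 (SE; edgeR adjusted p = 0.998), so no direction can be given. Counts this low leave the gene's level in sperm poorly determined.

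HSP90AB1, the constitutive cytosolic HSP90 that holds the receptor ready for hormone, varied most among the members with counts in every library. It had 700, 46 and 1567 counts in Maltreated 1 to 3, against 130, 114, 93 and 301 in Control 1 to 4. Its level was 23.45, 7.694 and 136 CPM in Maltreated and 13.87, 20.66, 15.89 and 56.08 CPM in Control libraries, a 17.68-fold range. Maltreated 3 was 5.8-fold above Maltreated 1, and Control 4 was 2.71-fold above the next Control library. The 301 counts of Control 4 covered only 35.6% of the exon bases, against 67.9 to 100% in Control 1 to 3 and 100% in Maltreated 3. These are the same libraries that had the most leukocyte RNA, and in the other 5 libraries HSP90AB1 stayed between 7.694 and 23.45 CPM. Whether leukocyte RNA contributed was not tested.

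The group means of HSP90AB1 were 55.7 ± 70.0 CPM (SD, n = 3) in Maltreated and 26.6 ± 19.8 CPM (SD, n = 4) in Control sperm. The log2 fold change was 1.07 ± 0.87 (SE; edgeR adjusted p = 0.999), with a 95% interval from -0.85 to 2.99. It was -0.77 without Maltreated 3, 1.72 without Control 4 and -0.12 without both, so its sign rested on Maltreated 3. HSP90AB1 lies on the plus strand of chromosome 6, from 45256894 to 45263349, with 12 exons. All 12 exons carried counts in Maltreated 1, Maltreated 3 and Control 1 to 3, 10 in Control 4 and 6 in Maltreated 2. In Maltreated 2, 47.8% of its 46 counts fell on exon 10 and 41.3% on exon 6. Exon 6 was singled out from the 73 distinct exons of the members after its counts were seen. It held 23.7, 41.3 and 18.7% in Maltreated 1 to 3, against 7.69, 8.77, 3.23 and 10.3% in Control 1 to 4. The share in Maltreated 2 was 19 counts, which covered a fraction of 0.1721 of the exon. How often single exons separate the groups over all genes was not computed, so no difference is read from exon 6. The gene has processed pseudogenes in humans, and the labels do not say how reads that fit several loci were counted, so its counts are uncertain where copies share sequence. The same holds for PTGES3.

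**Figure D2:**
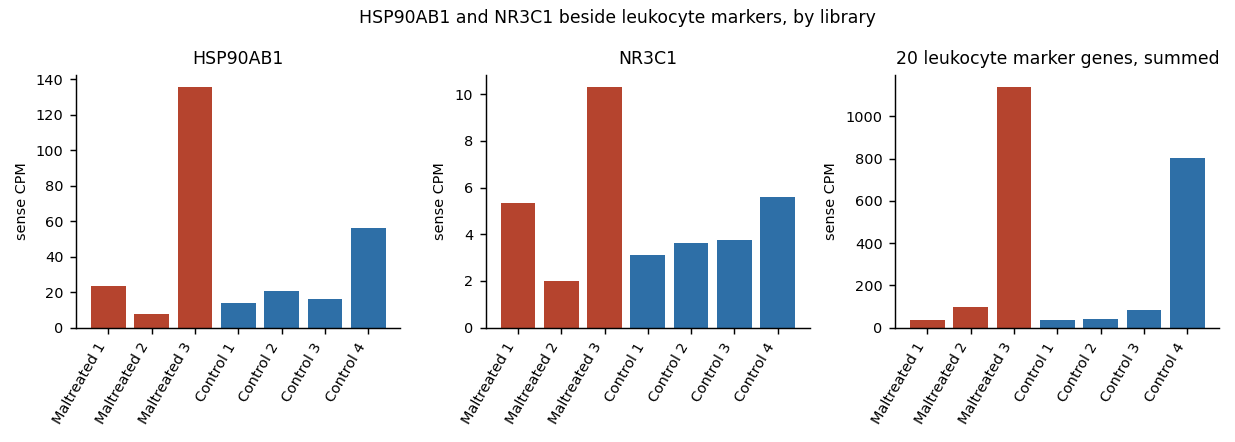
Sense CPM of HSP90AB1 (left), of NR3C1 (middle) and of 20 leukocyte marker genes summed (right) in each library, Maltreated in red and Control in blue. Maltreated 3 and Control 4 were the highest in all 3 panels, though for NR3C1 Control 4 (5.589 CPM) was close to Maltreated 1 (5.326 CPM). Maltreated 2 had the next highest leukocyte sum (99.02 CPM) and the lowest values of NR3C1 (2.007 CPM) and HSP90AB1 (7.694 CPM).

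STIP1 (also called HOP) bridges HSP70 and HSP90 and passes the receptor between them. It was among the steadiest genes of the set. It had 2278, 479 and 1095 counts in Maltreated 1 to 3, against 843, 564, 460 and 425 in Control 1 to 4. These correspond to 76.3, 80.12 and 95.05 CPM in Maltreated and 89.94, 102.2, 78.58 and 79.18 CPM in Control libraries. The Maltreated libraries sat inside or just below the Control range. The means were 83.8 ± 9.91 CPM (SD, n = 3) and 87.5 ± 11.1 CPM (SD, n = 4), with a log2 fold change of -0.06 ± 0.31 (SE; edgeR adjusted p = 0.999). The 95% interval ran from -0.75 to 0.63. Without Control 2 the sign turned, at 0.03.

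PTGES3 (p23) closes the HSP90 complex and stabilises the receptor in its hormone-binding form. It had by far the most counts of the members. Per kilobase of exon it ranked between the 98.3rd and the 99.0th percentile of all genes in every library. Nearly all of its counts lay on exons 2 to 5. It had 8451, 1724 and 4657 counts in Maltreated 1 to 3, against 3852, 2379, 2275 and 1702 in Control 1 to 4. Its level was 283.1, 288.4 and 404.3 CPM in Maltreated and 411, 431.1, 388.6 and 317.1 CPM in Control libraries. Maltreated 1 and Maltreated 2 were below every Control library and Maltreated 3 was within them. The means were 325 ± 68.5 CPM (SD, n = 3) and 387 ± 49.7 CPM (SD, n = 4), with a log2 fold change of -0.25 ± 0.25 (SE; edgeR adjusted p = 0.999) and a 95% interval from -0.80 to 0.30. Without Maltreated 3 and Control 4 the log2 fold change was -0.54 ± 0.29 (SE; edgeR adjusted p = 1.0).

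The immunophilins FKBP5 and FKBP4 compete for the same place on HSP90. FKBP5 (FKBP51) lowers the receptor's affinity for hormone and is itself induced by glucocorticoids in many tissues. It had 521, 120 and 324 counts in Maltreated 1 to 3, against 155, 112, 77 and 110 in Control 1 to 4. Its level was 17.45, 20.07 and 28.12 CPM in Maltreated and 16.54, 20.3, 13.15 and 20.49 CPM in Control libraries. Maltreated 3 was the highest, and the other Maltreated libraries lay within the Control range. The means were 21.9 ± 5.56 CPM (SD, n = 3) and 17.6 ± 3.49 CPM (SD, n = 4), with a log2 fold change of 0.31 ± 0.55 (SE; edgeR adjusted p = 0.999). The 95% interval ran from -0.90 to 1.53, and the log2 fold change was 0.08 without Maltreated 3.

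FKBP4 (FKBP52) links the receptor to the motor that carries it to the nucleus. It lies on chromosome 12 (plus strand, 2914411 to 2924639). It had 157, 35 and 107 counts in Maltreated 1 to 3, against 51, 64, 38 and 25 in Control 1 to 4. Its level was 5.259, 5.854 and 9.288 CPM in Maltreated and 5.441, 11.6, 6.491 and 4.658 CPM in Control libraries, and the groups overlapped fully. The means were 6.80 ± 2.18 CPM (SD, n = 3) and 7.05 ± 3.13 CPM (SD, n = 4), with a log2 fold change of -0.05 ± 0.85 (SE; edgeR adjusted p = 0.999). This value was 0.30 without Control 2 and -0.35 without Maltreated 3, so no direction can be given. Per kilobase FKBP5 exceeded FKBP4 in every library, by 5.45-, 5.64- and 4.98-fold in Maltreated 1 to 3 and by 5.0-, 2.88-, 3.33- and 7.23-fold in Control 1 to 4.

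**Figure D3:**
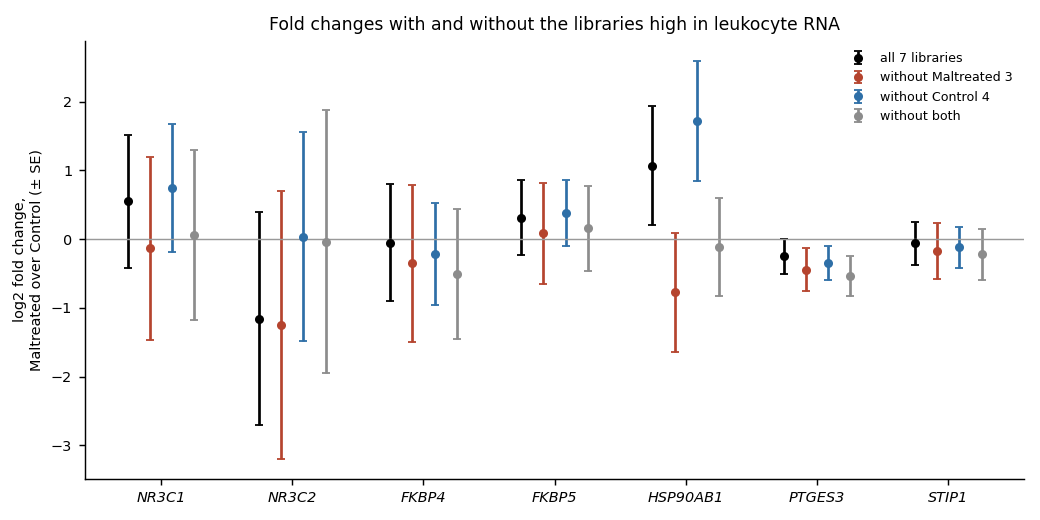
Log2 fold changes, Maltreated over Control (vertical axis, with SE), for each of the 7 genes, from all 7 libraries and without Maltreated 3, without Control 4 or without both. HSP90AB1 had 1.07 with all libraries and -0.77 without Maltreated 3, while PTGES3 stayed between -0.54 and -0.25 in these 4 fits.

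Set against each other per kilobase of distinct exon, the members formed a steep ladder of levels. Medians over the 7 libraries were 203 CPM per kilobase for PTGES3, 37.4 for STIP1, 10.6 for FKBP5, 8.16 for HSP90AB1, 1.89 for FKBP4, 0.588 for NR3C1 and 0.282 for NR3C2. PTGES3 exceeded STIP1, and STIP1 exceeded FKBP5, in 7 of 7 libraries without any overlap of their ranges. FKBP5 exceeded HSP90AB1 in only 4 of 7 libraries, so these neighbours did not differ beyond their spread. NR3C1 exceeded NR3C2 in 5 of 7, the exceptions being Control 1 and Control 4, and this pair overlapped as well. FKBP4 exceeded NR3C1 in 7 of 7, though the ranges overlapped. Among all genes NR3C1 ranked between the 43.8th and 53.1st percentile and NR3C2 between the 18.4th and 54.8th, near the middle or below. These percentiles include the genes without counts. In Maltreated 2 only 11542 of the 18282 genes had sense counts, and NR3C1 ranked at 48.3 there with 12 counts. The 18.4 of NR3C2 in Maltreated 2 is the shared rank of genes at 0. STIP1 ranked between the 92.5th and 94.7th percentile, so the co-chaperones PTGES3 and STIP1 stood among the RNAs with the most counts per kilobase. The receptors they serve did not. A read on several exons counts on each, which can raise genes of short exons per kilobase. PTGES3 exons 2 to 5 have 69 to 113 bases, and the last NR3C1 exon has 4095. How far such repeated counting shaped the ladder was not tested. PTGES3 exons 2 to 5 held 96.3 to 100% of its counts on 19.3% of its exon bases. Its rank therefore describes those exons and not the whole transcript. In Maltreated 3 alone HSP90AB1 was above STIP1, at 53.7 against 44.42 CPM per kilobase.

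In PTGES3 and FKBP5 most sense counts lay on a few neighbouring exons, and in STIP1 between 53.0 and 74.1% did. Exons are numbered here from the 5′ end over the distinct exons of the files, and the blocks were chosen after their counts were seen, so they are described without a test. In PTGES3 (chromosome 12, minus strand, 54929135 to 54955484) exons 2 to 5 span 54936333 to 54939750 and make up 369 of 1911 exon bases (19.3%). They held 97.3, 96.3 and 98.3% of the sense counts in Maltreated 1 to 3, against 96.9, 96.9, 97.4 and 100% in Control 1 to 4. The last exon has 1160 bases and carried at most 23 counts in any library. Nearly all PTGES3 counts thus lay on these exons in every library of either group, although reads covered all of its exon bases in Maltreated 1 and Control 2. In Control 4 no count at all lay outside these 4 exons.

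FKBP5, on the minus strand of chromosome 6 between 36383660 and 36502226, had most of its counts on exons 2 to 5, which are 27.7% of its exon bases. They held 83.1, 99.2 and 88.0% in Maltreated 1 to 3, against 69.0, 85.7, 84.4 and 99.1% in Control 1 to 4. In Control 4, 108 of the 110 counts lay on exon 4 alone, which was the exon with the most counts in 5 of 7 libraries. The Control 4 value of FKBP5 thus rested almost wholly on 1 exon. The last exon had 10, 0 and 4 counts in Maltreated 1 to 3, against 0, 0, 7 and 1 in Control 1 to 4.

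STIP1, on the plus strand of chromosome 11 between 9126219 and 9146862, had its most counted exons at 8 to 10, which are 15.9% of the exon bases. These exons held 53.0, 54.3 and 56.3% of the counts in Maltreated 1 to 3, against 74.1, 69.5, 64.3 and 72.7% in Control 1 to 4. In Control 4 exon 8 carried 0 counts and the share came from exons 9 and 10. Outside the block all 11 other exons carried counts in each Maltreated library, against 11, 9, 7 and 4 of them in Control 1 to 4. In Maltreated 2 exons 3, 7, 11, 12 and 13 carried 3 counts each, and in Control 1 exons 1, 11 and 12 carried 1 each. A read on several exons counts on each, so a few reads may account for such exons. The groups did not overlap in the share of exons 8 to 10, which averaged 54.5 ± 1.63% (SD, n = 3) in Maltreated and 70.2 ± 4.34% (SD, n = 4) in Control sperm. The share on the 3 most counted exons was computed in the same way for each tested gene with at least 8 exons and counts in all 7 libraries. It was lower in every Maltreated than in every Control library in 4.84% of 5762 genes, and higher in 0.625%. Among the members, STIP1 was the 1 of 7 whose groups did not overlap in it. NR3C2, which lacked a share in Maltreated 2, was not among the 5762 genes. Reads covered 100% of the STIP1 exon bases in each Maltreated library, against 100, 72.5, 45.8 and 33.9% in Control 1 to 4, and the part of this in the share was not tested. Exon 1, singled out from the 73 distinct member exons after its counts were seen, carried 23, 34 and 17 counts in Maltreated 1 to 3. In Control 1 to 4 it carried 1, 0, 0 and 0. How often single exons separate the groups over all genes was not computed, so no difference is read from it.

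**Figure D4:**
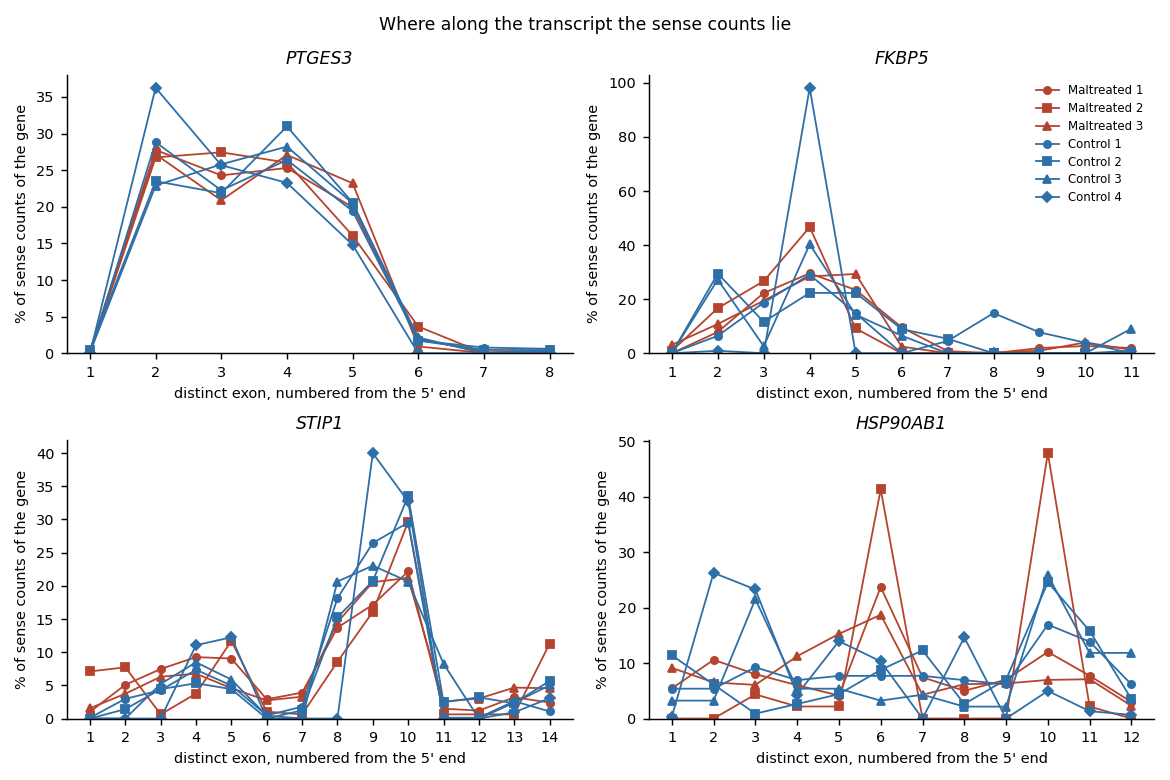
Share of a gene's sense counts (vertical axes, %) on each distinct exon, numbered from the 5′ end (horizontal axes), for PTGES3, FKBP5, STIP1 and HSP90AB1. Lines are libraries, Maltreated in red and Control in blue. The PTGES3 profile was nearly alike in the 7 libraries, STIP1 had its highest shares on exons 9 and 10 in most libraries and no count on exon 8 in Control 4, and HSP90AB1 had no common peak.

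Such concentration was not particular to these genes. Averaged over libraries, the 3 most counted exons held 78.4% of the counts of PTGES3, 75.2% of NR3C2, 72.7% of FKBP5, 63.5% of STIP1, 59.3% of NR3C1, 54.1% of FKBP4 and 46.6% of HSP90AB1. Over 7256 tested genes with at least 8 exons the median was 60.3%, and the quartiles were 48.2 and 72.7%. PTGES3 and NR3C2 were thus above the upper quartile and HSP90AB1 below the lower quartile. The covered share of a gene has a further limit. In Control 4 each of the 14 STIP1 exons carried exactly 1 antisense count, and the deposited antisense coverage of the gene was 100%. Full coverage was thus reached with 14 counts. A read on several exons counts on each, so these may come from fewer reads than 14. Likewise full coverage of HSP90AB1 in Control 1 and Control 3, with 130 and 93 counts, is no measure of intact transcripts.

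Counts on the strand opposite to the gene (antisense) were rare for most members. They made up 0.465% of all counts of PTGES3 over the 7 libraries, 1.80% of FKBP5, 1.93% of STIP1, 2.54% of HSP90AB1, 5.77% of NR3C2 and 7.57% of NR3C1. Over all genes antisense counts were between 6.152 and 9.687% in Maltreated and between 6.847 and 12.137% in Control libraries. FKBP4 was the exception, with 273 antisense and 477 sense counts, a share of 36.4%. It had 134, 0 and 33 antisense counts in Maltreated 1 to 3, against 20, 28, 58 and 0 in Control 1 to 4. In Control 3 antisense outnumbered sense, and in Maltreated 2 and Control 4 there was none.

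Most antisense counts of FKBP4 lay on its 3′ end. The last 2 exons, 9 and 10, are 64.3% of the exon bases and held 229 of the 273 antisense counts (83.9%) but only 123 of the 477 sense counts (25.8%). In Control 3 all 58 antisense counts were there. Only FKBP4 and STIP1 had enough antisense counts to be tested. The log2 fold change was -0.65 ± 1.84 (SE; edgeR adjusted p = 0.998) for FKBP4 and 0.91 ± 1.41 (SE; edgeR adjusted p = 0.998) for STIP1, where the median of all genes tested on antisense counts was -0.13. Without Control 3 the FKBP4 value was 0.13. The labels do not say whether the library kit marks strand. Neither had an unadjusted p under 0.05, DESeq2 called neither, and 0 of 4382 genes (0.0%) passed edgeR's test on antisense counts, with 110 (2.51%) at an unadjusted p under 0.05. By DESeq2 13 of these genes passed. In PTGES3, 90 of the 117 antisense counts were in Maltreated 3, and in NR3C1 24 of 32 were in Control 1. The 90 were 27 on each of exons 2 and 3, 8 on each of exons 5 to 8, and 2 on each of exons 1 and 4. The 24 were 6 on each of exons 4 to 7. A read on several exons counts on each, so fewer reads may lie behind both.

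A wider list of 45 genes around the receptor was read from the same fit: other HSP90 and HSP70 chaperones, their co-chaperones, nuclear coregulators of the receptor and the enzymes that convert cortisol. Of these 44 were in the files and 41 had enough counts to be tested, which left out HSD11B1 and HSD11B2, the cortisol-converting enzymes, and BAG2. With edgeR 0 of 41 passed, and 1 had an unadjusted p under 0.05, where the share over all genes was 1.78%. DESeq2 called 0. In Maltreated sperm 20 had a log2 fold change above 0 and 21 below, with a median of -0.01 against -0.02 over all genes.

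The gene of this list with the smallest p was CHORDC1, an HSP90-binding co-chaperone. It had 3.89, 17.4 and 10.1 CPM in Maltreated 1 to 3, against 4.8, 0.725, 0.342 and 0.373 CPM in Control 1 to 4, with a log2 fold change of 2.71 ± 1.22 (SE; edgeR adjusted p = 0.999). Control 1 was above Maltreated 1, so the groups overlapped. HSPH1, an HSP110 that recharges HSP70, averaged 47.1 ± 32.7 CPM (SD, n = 3) in Maltreated and 22.2 ± 11.3 CPM (SD, n = 4) in Control sperm. BAG1, another nucleotide exchange factor of HSP70, averaged 86.2 ± 20.2 CPM (SD, n = 3) and 52.7 ± 35.8 CPM (SD, n = 4).

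In the other direction, AHSA1, which stimulates the ATPase of HSP90, averaged 11.1 ± 4.92 CPM (SD, n = 3) in Maltreated and 29.6 ± 42.1 CPM (SD, n = 4) in Control sperm. Control 4 alone held 92.6 CPM of it, and the other Control libraries between 5.97 and 13.4 CPM. FKBP6, an immunophilin required in the male germ line of mice, averaged 181 ± 107 CPM (SD, n = 3) and 250 ± 43.2 CPM (SD, n = 4). NCOA2, a coactivator of the receptor, averaged 67.7 ± 20.8 CPM (SD, n = 3) and 90.8 ± 8.83 CPM (SD, n = 4). None of these 6 passed, each with an edgeR adjusted p of 0.999. In 1 gene of the list the groups did not overlap, the acetyltransferase CREBBP, named after its values were seen, with 392, 420 and 369 CPM in Maltreated and 427, 487, 422 and 467 CPM in Control libraries. That is 1 of 41, where 1.49% of all tested genes lay lower in every Maltreated library.

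Among 8004 tested genes with a mean of at least 5 CPM, those whose log2 levels followed NR3C1 most closely over the 7 libraries were WFS1, ATP6V0C and HSP90AB1, with Pearson's r of 0.977, 0.971 and 0.964. Without Maltreated 3 and Control 4 r was 0.975, 0.981 and 0.944 over 5 libraries. These are descriptions of 7 libraries that differ in depth and leukocyte RNA. WFS1, an endoplasmic reticulum membrane protein, had 7.23, 0.0 and 25.3 CPM in Maltreated 1 to 3, against 0.64, 2.54, 2.05 and 10.8 CPM in Control 1 to 4. NR3C1 and HSP90AB1 had a Spearman's rho of 0.964. HSP90AB1 was picked from the 8004 genes by its r over these same libraries, so no link between receptor and chaperone is read from it. HSP90AB1 itself was followed most closely by ATP6V0C, HNRNPA1 and ABCA1, with r of 0.99, 0.968 and 0.966, and r was 0.732 for ABCA1 over the 5 libraries.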

How the data were processed

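The deposited table of the series holds, per the file headers, the count of reads per gene on each strand and the fraction of the gene's exon bases covered, with no normalisation by the authors. Per-library files hold, as deposited, the read count and covered fraction of each exon. The submitters' processing notes name STAR, featureCounts and bedtools, without versions. Coordinates are the files' own, 1-based, and their build is not stated.

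Gene counts were checked against the exon files and differed in 0 of 18282 genes, after 2 genes listed on both strands were left out. Sense counts were tested on the whole table by the quasi-likelihood F test of edgeR 4.0.16 (R 4.3.3) after filterByExpr (minimum count 10, minimum total 15) and TMM scaling, with Benjamini-Hochberg adjustment at 0.05. Antisense counts were tested likewise with their own factors, and antisense CPM use the sense factors. An SE is the fold change over the root of F, and 95% intervals use the total degrees of freedom. HSP90AA1 was not analysed here, so likeness was computed for HSP90AB1 in its place. Named genes outside the members are the 3 with the smallest p in each direction of the wider list, the 3 genes most like NR3C1 and like HSP90AB1 by log2(CPM + 1), and markers; genes named otherwise were chosen after their values were seen. Counts sum over exon entries, so a read on several exons counts on each, and levels per kilobase take each distinct exon once. The members and lists were chosen with earlier results of these data known. Alternatives covered DESeq2 1.42.0, other scaling and filters, a replicate block, age, left-out libraries, both strands summed, distinct exons, and, chosen after seeing the data, exon counts above the lower neighbour. Reads carry no molecular identifiers, so limits on counts cover counting error only.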

Additional observations from a re-analysis of the deposited data

Results flagged for a closer look

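In 4 cases 1 of the 4 Control libraries lay far from the other 3 by Dixon's test, which flags about 1 in 20 groups by chance when values are not sparse. HSP90AB1 had 56.08 CPM in Control 4, against 13.87 to 20.66 CPM in the other Control libraries. Its counts in Control 4 covered 35.6% of the exon bases, against 67.9 to 100% in the others. Control 4 also had the highest sums of leukocyte and of testis somatic markers in its group. Among antisense levels, Control 1 was the highest for NR3C1 at 2.561 CPM, for FKBP5 at 1.067 CPM and for PTGES3 at 0.6402 CPM. These stood for 24, 10 and 6 antisense counts, and in the other Control libraries FKBP5 and PTGES3 had none and NR3C1 at most 2. Where the other libraries are all at 0 any count is flagged, so that rate does not hold for FKBP5 and PTGES3.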

How the results depend on the processing

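No member passed in any fit run on sense or antisense counts, nor any gene of the wider list on sense counts. Over all genes the calls were 0, but 3 with DESeq2 and 1 with age as a covariate on sense counts, and 13 with DESeq2 and 24 without a filter on antisense counts. Of 143 member fold changes under alternatives 131 kept their sign and 12 reversed, and the smallest adjusted p was 0.948. Sense fold changes (log2) that reversed were FKBP4 scaled to library totals (0.0002), NR3C2 (1.55) and STIP1 (0.028) with age as a covariate, and HSP90AB1 without Maltreated 3 and Control 4 together (-0.12). Leaving out 1 library at a time gave FKBP4 -0.35 to 0.30, STIP1 -0.17 to 0.0255, NR3C2 -1.97 to 0.0364, NR3C1 -0.13 to 0.95, HSP90AB1 -0.77 to 1.72, and antisense FKBP4 -1.28 to 0.13. PTGES3 (-0.45 to -0.17) and FKBP5 (0.08 to 0.45) kept their sign. The number of members higher in Maltreated sperm, 3 of 7, was 5 with age as a covariate and 1 to 5 without single libraries, the 1 without Maltreated 3 and 5 without Control 2. With age as a covariate HSP90AB1 had a log2 fold change of 2.07 ± 0.86 (SE; edgeR adjusted p = 0.998), the only member fit with an unadjusted p under 0.05. The causes of these shifts were not tested. Deviations from the group means correlated at 0.075, 0.01 and -0.019 between same-numbered libraries 1 to 3. Over all pairs of a Maltreated and a Control library they ranged from -0.114 to 0.093. So few libraries cannot show whether the number pairs them. With a replicate block 0 members passed, and HSP90AB1 had a log2 fold change of 0.82. Counts of NR3C1 and NR3C2 are too few to bound a difference closely.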

Other observations

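HSPA8, the constitutive HSP70 that receives the receptor first, was singled out after its values were seen. It had 9.45, 1.34 and 82.6 CPM in Maltreated 1 to 3, against 2.45, 10.7, 1.02 and 59.8 CPM in Control 1 to 4. Like HSP90AB1 it was highest in Maltreated 3 and Control 4, the libraries with the most leukocyte RNA, and whether leukocyte RNA contributed was not tested. HSPA1A, a stress-inducible HSP70, had 9.68, 24.4 and 30.9 CPM in Maltreated 1 to 3, against 5.12, 23.2, 16.1 and 49.2 CPM in Control 1 to 4, and was highest in the same libraries. The germline HSPA1L had 43.3, 25.1 and 12.6 CPM in Maltreated 1 to 3, against 17.4, 27.9, 18.1 and 53.1 CPM in Control 1 to 4, and was thus highest in Control 4 and lowest in Maltreated 3. HSPA2, also of the germ line, had 18.5, 46.8 and 16.9 CPM in Maltreated 1 to 3, against 15.4, 41.7, 24.6 and 13.2 CPM in Control 1 to 4, with its highest values in Maltreated 2 and Control 2. HSP90B1, the HSP90 of the endoplasmic reticulum, had 16.3, 17.4 and 96.4 CPM in Maltreated 1 to 3, against 23.2, 12.9, 40.0 and 35.8 CPM in Control 1 to 4.

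Several coregulators of the receptor, also picked after their values were seen, had far higher CPM in sperm RNA than the receptor. CPM are not scaled to exon length, and a read on several exons counts on each, so relative abundance is not read from them. EP300 averaged 732 ± 170 CPM (SD, n = 3) in Maltreated and 774 ± 118 CPM (SD, n = 4) in Control sperm. SMARCA4 averaged 462 ± 26.6 CPM (SD, n = 3) and 573 ± 176 CPM (SD, n = 4), and NCOA1 429 ± 80.2 CPM (SD, n = 3) and 444 ± 113 CPM (SD, n = 4). None passed the test, each with an edgeR adjusted p of 0.999.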
